A study of Mus musculus with 2 samples.

Results

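The tumour necrosis factor (TNF) superfamily was described here in naive resting CD8 T cells, across 28 of the 21827 protein-coding genes of the annotation. Members were the protein-coding genes whose symbol begins with Tnfrsf or Tnfsf and a digit, without 3 receptors (Tnfrsf4, Tnfrsf9 and Tnfrsf18) that the rule leaves out. They comprised 17 receptors (Tnfrsf symbols) and 11 ligands (Tnfsf symbols). The rule uses no measured value. Chromatin accessibility had been mapped by DNase-seq, in which the nuclease DNase I cuts open DNA in nuclei and the cut ends are sequenced. The data were 2 libraries, numbered biological replicates 2 and 3 by the labels. Both were from primary cells of virgin male adult mice of the B6CASTF1/J cross at 2 months of age, with no treatment named. They formed 1 group, so the design held no comparison between conditions. The 2 share a donor label but not a biosample label, and the labels do not say if they are from different animals; differences between them may therefore be technical.

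TNF superfamily ligands are mostly trimeric membrane proteins that can be shed, and their receptors carry cysteine-rich repeats outside the cell. Receptors with a cytoplasmic death domain can start apoptosis through FADD and caspase-8, and the others recruit TRAF adaptors that lead to NF-kB and MAP kinases; decoy receptors bind a ligand without passing on a full signal. In T cells the family supplies costimulation, survival and death signals, and many of its members are induced only after antigen is met.

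Each library had its own peak lists. The stricter list (38223 peaks in replicate 2 and 17061 in replicate 3) held peaks with a position at a false discovery rate of 0.001 or less, and the permissive list (53597 and 24844 peaks) went up to 0.05. A footprint is a short stretch protected from cutting, and 146244 were listed in replicate 2 against 29967 in replicate 3. The signal of a peak is the authors' value, of unstated scaling, so it was compared between libraries only by its percentile among all stricter peaks of its own library. All stricter signals below 2 were whole multiples of 1 step in each library (25650 of 25650 and 4539 of 4539 values, within 0.05 of a step). If the authors scaled by depth, the steps put replicate 2 at 6.05 times the depth of replicate 3. Of 10 naive CD8 T cell marker promoters, 7 had a stricter peak in replicate 2, Cd8b1 alone had one in both, and Tcf7 had no peak in any list. Over all protein-coding genes, 50.5% had a stricter promoter peak in replicate 2 and 40.9% in both libraries. None of the 6 natural killer cell marker promoters had a stricter peak in either library, whereas 2 of 6 CD4, 1 of 8 B cell and 2 of 8 myeloid marker promoters had one in replicate 2. In each of these lists 1 marker had one in both libraries (Icos, Cr2 and Cebpa), as in the naive CD8 list, so the calls over both libraries did not set the naive CD8 markers apart from those of other lineages.

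Of the 28 members, 4 had a stricter peak in the promoter window (1000 bp either side of an annotated start site) in both libraries. This was 14.3% of members, against 40.9% of all protein-coding genes. The 4 were receptors: Tnfrsf12a (Fn14, the receptor of TWEAK), Tnfrsf19 (TROY, an orphan-type receptor known from skin and the nervous system), Tnfrsf23 (a mouse decoy receptor of TRAIL) and Tnfrsf11a (RANK, the receptor of RANK ligand). Their coordinates, like all below, are those of mm10. The stretches of these promoter peaks that lie outside exons are shown because they carry the shared openings. The letters are the forward strand of the mm10 (GRCm38) RefSeq reference, and capitals mark footprints of replicate 2. Alleles of the CAST parent were not examined.

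Tnfrsf12a promoter, chr17:23677469-23677600: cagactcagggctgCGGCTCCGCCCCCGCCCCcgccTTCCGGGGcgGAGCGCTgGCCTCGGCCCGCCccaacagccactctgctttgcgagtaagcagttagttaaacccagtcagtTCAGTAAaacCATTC
Tnfrsf19 promoter, chr14:61046491-61046660: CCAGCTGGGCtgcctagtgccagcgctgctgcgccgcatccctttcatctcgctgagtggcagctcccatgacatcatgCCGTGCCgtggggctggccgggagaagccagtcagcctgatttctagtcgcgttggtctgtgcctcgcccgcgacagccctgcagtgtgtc
Tnfrsf23 promoter, chr7:143685873-143686000: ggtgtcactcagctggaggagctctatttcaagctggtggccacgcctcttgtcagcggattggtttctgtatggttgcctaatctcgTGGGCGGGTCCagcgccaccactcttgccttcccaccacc
Tnfrsf11a promoter, chr1:105780501-105780717: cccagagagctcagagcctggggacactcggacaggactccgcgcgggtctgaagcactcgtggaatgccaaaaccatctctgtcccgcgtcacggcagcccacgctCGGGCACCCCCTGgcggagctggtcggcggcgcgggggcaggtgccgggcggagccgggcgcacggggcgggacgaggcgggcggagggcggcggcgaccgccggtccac

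Tnfrsf12a, on the reverse strand at chr17:23675445-23677468, had the highest promoter signal of all members in both libraries. Its peak spanned chr17:23677381-23677600, over the first coding exon and the bases before it, and its signal was 3.34 in replicate 2 and 4.47 in replicate 3. These stood at percentiles 81.0 and 69.4 of the peaks of each library. Replicate 2 listed 7 footprints in this promoter and replicate 3 listed 1, which overlapped none of the 7. One of the replicate 2 footprints, chr17:23677483-23677500, held the KLF/SP letters GGGCGGGG on the reverse strand; it is the first run of capitals in the Tnfrsf12a sequence. Across all footprints in promoter windows of replicate 2, 5.85% held these letters.

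Tnfrsf19, on the reverse strand at chr14:60963875-61046490, followed with signals of 3.11 and 3.39 (percentiles 79.4 and 55.3). Its replicate 2 peak at chr14:61046421-61046660 overlapped an untranslated exon and held 4 footprints, and replicate 3 had 2, of which 1 overlapped one of replicate 2. Tnfrsf23 had signals of 1.61 and 1.63 (percentiles 59.6 and 16.2), with 2 footprints in replicate 2 and 1 in replicate 3. Tnfrsf11a was the lowest of the 4, at 0.918 in replicate 2 and 1.13 in replicate 3. That value stood at percentile 3.68 of replicate 3, and only replicate 2 had a footprint there. The replicate 3 peak of Tnfrsf11a (chr1:105780594-105780686) was also narrower than that of replicate 2 (chr1:105780501-105780720). Tnfrsf11a was no longer counted when 50% of each peak had to be shared or when both libraries were cut to equal numbers of peaks. The 4 shared promoters thus differed widely in rank. Among all peaks, distal ones included, Tnfrsf12a and Tnfrsf19 were above the median of both libraries and Tnfrsf11a below it in both. All 4 were below the median promoter peak over all genes, which stood at percentile 83.4 in replicate 2 and 71.3 in replicate 3.

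**Figure D1:**
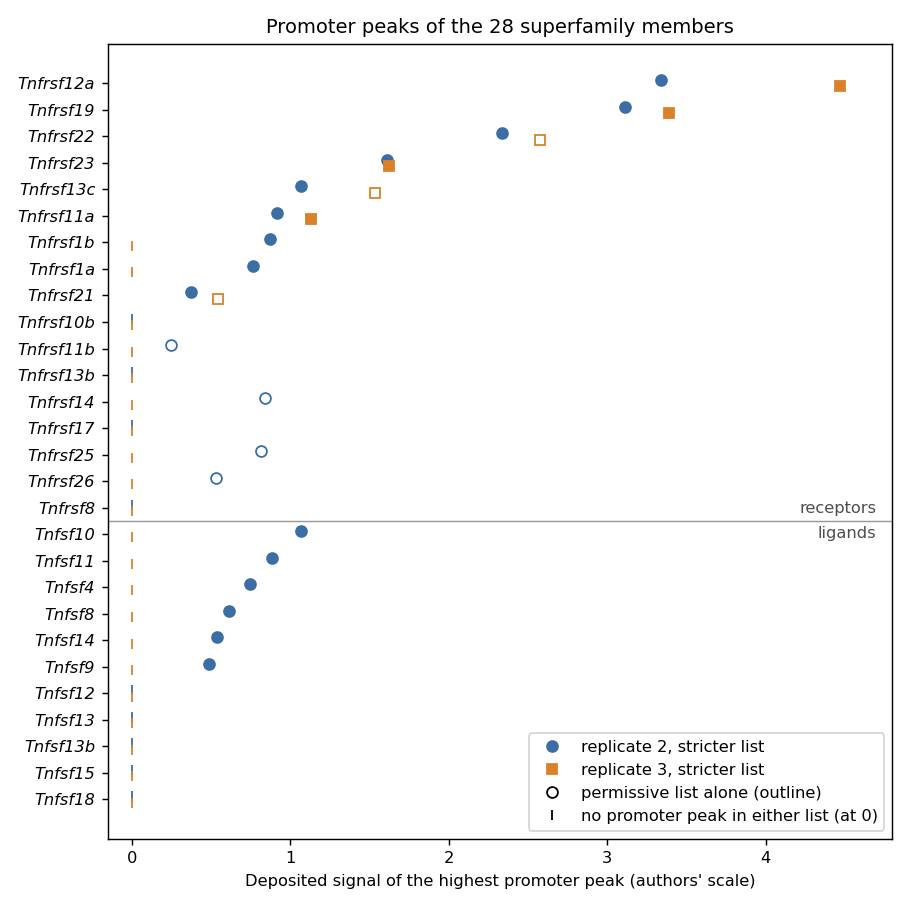
Signal of the highest promoter peak of each member (x axis, authors' scale) in replicate 2 (blue circles) and replicate 3 (orange squares). Filled symbols are stricter peaks, outlined symbols are peaks of the permissive list alone, and ticks at 0 mark no promoter peak in either list; filled squares appear for 4 receptors and for no ligand.

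Another 11 members had a stricter promoter peak in replicate 2 alone, and none had one in replicate 3 alone. With these, 15 of 28 members (53.6%) had a promoter peak in replicate 2, near the 50.5% of all protein-coding genes. In replicate 3 the 4 members made 14.3%, against 40.9% of all genes. Most member promoter peaks had low signals for promoter peaks. Over the 15 members the replicate 2 signal ran from 0.373 to 3.34 with a median of 0.888 (median percentile 33.6), whereas the median over all 11019 genes with a promoter peak was 3.75 (median percentile 83.4). In replicate 3 the 4 members had a median of 2.51, and the 8924 genes with a promoter peak had 4.65. These are descriptions of the lists, with no test.

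Among receptors open in replicate 2 alone, Tnfrsf22, the other mouse decoy receptor of TRAIL, was the highest at 2.34. Replicate 3 had it only in the permissive list, at 2.57, where the lowest false discovery rate of the promoter was 0.00155, just above the stricter threshold. Tnfrsf13c, the BAFF receptor of B cells, had 1.07 in replicate 2 and a permissive peak of 1.54 in replicate 3, with a lowest rate of 0.00263 there. The promoter of Tnfrsf1b (TNF receptor 2, which recruits TRAF adaptors) had 0.873, and that of Tnfrsf1a (TNF receptor 1, which carries a death domain) had 0.768. Neither had a replicate 3 peak in either list, and the lowest replicate 3 rate was 0.0402 at Tnfrsf1b, with none listed at Tnfrsf1a. Tnfrsf21 (death receptor 6) had the lowest stricter promoter signal of the 15 members, 0.373, and a permissive peak of 0.542 in replicate 3.

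All 6 ligands with a stricter promoter peak had it in replicate 2 alone. Tnfsf10 (TRAIL, a death-inducing ligand) was the highest at 1.07, followed by Tnfsf11 (RANK ligand) at 0.888 and Tnfsf4 (OX40 ligand, a costimulatory ligand best known from antigen-presenting cells) at 0.746. Tnfsf8 (CD30 ligand) had 0.612, Tnfsf14 (LIGHT, which binds HVEM) 0.537 and Tnfsf9, a costimulatory ligand, 0.485. Of the 11 ligands none had a promoter peak in replicate 3 in either list, and only Tnfsf10 had a listed replicate 3 rate, 0.0442. The peak of Tnfsf11 lay 0.956 kb into the gene, in an intron, and was lost with a window of 500 bp. The ligand promoters open in replicate 2 had a median signal of 0.679, against 1.07 for the 9 receptors; ligands and receptors overlapped in range.

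Replicate 3 seldom recovered replicate 2 peaks of such signals anywhere in the genome. The shares below pool promoter and distal peaks, and none was counted for promoter peaks alone. Over all stricter peaks of replicate 2, a replicate 3 peak overlapped 1.48% in the lowest decile by signal, which held Tnfsf14, Tnfsf9 and Tnfrsf21. The share was 4.45% in the second decile, which held Tnfsf8, 7.33% in the third (Tnfrsf1a and Tnfsf4) and 14.2% in the fourth (Tnfrsf1b and Tnfsf11). In the fifth decile, which held Tnfrsf13c and Tnfsf10, it was 25.4%. Tnfrsf22 stood apart from the other 10, since 80.1% of peaks in its eighth decile were found in replicate 3. Of the 11 members, 5 had any listed replicate 3 rate in the promoter window and 3 (Tnfrsf13c, Tnfrsf21 and Tnfrsf22) had a permissive replicate 3 peak there. With the permissive lists 7 members, all receptors, had a promoter peak in both libraries, and the share of all genes was 45.5%.

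Tnfrsf22, Tnfrsf23 and Tnfrsf26 lie side by side on chromosome 7, all on the reverse strand, with 6.08 kb between Tnfrsf26 and Tnfrsf22 and 16.2 kb between Tnfrsf22 and Tnfrsf23. The promoters of the pair of decoy receptors share much of their sequence. Outside the exons, their open stretches (99 and 128 bases) had 93 identical positions of 107 in a local alignment (86.9%). Such an alignment leaves out ends that do not match. The longest unbroken shared run was 34 bases. Reads from these stretches may not always be told apart, which was not tested. The Tnfrsf22 stretch is shown for comparison with that of Tnfrsf23 above, with capitals again marking replicate 2 footprints.

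Tnfrsf22 promoter, chr7:143649662-143649760: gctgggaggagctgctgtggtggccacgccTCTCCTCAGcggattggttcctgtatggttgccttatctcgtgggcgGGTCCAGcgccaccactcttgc

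In 200 bp around the start site, aligned over the whole length, the identity was 64.9% for Tnfrsf22 and Tnfrsf23. It was 46.5% for Tnfrsf22 and Tnfrsf26 and 49.8% for Tnfrsf23 and Tnfrsf26. For Tnfrsf12a and Tnfrsf19, which lie on different chromosomes, the same alignment gave 50.6%. In the shared stretch, replicate 2 had a footprint at chr7:143649739-143649745 in Tnfrsf22 (GGTCCAG) and at chr7:143685961-143685971 in Tnfrsf23 (TGGGCGGGTCC). A replicate 3 footprint at chr7:143685929-143685937 in Tnfrsf23 (CGGATTGGT) held the NFY letters CCAAT on the reverse strand, which 4.21% of all promoter footprints of replicate 3 held. Tnfrsf26, whose ligand is not well defined, had no stricter promoter peak. Its highest permissive peak was 0.530 in replicate 2, with a lowest rate of 0.00343 and 4 footprints, and nothing was listed in replicate 3.

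The remaining 13 members had no stricter promoter peak, and no replicate 3 false discovery rate was listed in any of their promoter windows. In 4 receptors replicate 2 had a permissive peak: Tnfrsf14 (HVEM, a receptor of resting T cells that also binds BTLA) at 0.843, Tnfrsf25 (death receptor 3) at 0.813, Tnfrsf26 at 0.530 and Tnfrsf11b (osteoprotegerin, a secreted decoy of RANK ligand) at 0.246. Tnfrsf14 came closest to the stricter threshold, with a lowest rate of 0.00120 and 2 footprints. The lowest replicate 2 rate was 0.0112 at Tnfrsf25, 0.0216 at Tnfrsf11b, 0.0314 at Tnfrsf8 (CD30) and 0.0494 at Tnfrsf10b (the mouse death receptor of TRAIL). For 7 members no rate was listed in either library. These were the receptors Tnfrsf13b (TACI) and Tnfrsf17 (BCMA), both of B lineage cells, and the ligands Tnfsf12 (TWEAK), Tnfsf13 (APRIL), Tnfsf13b (BAFF), Tnfsf15 (TL1A) and Tnfsf18 (GITR ligand). In all, 9 of 28 members had no promoter peak in any list, against 45.6% of all protein-coding genes.

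Of the 3 receptors of BAFF and APRIL, Tnfrsf13c alone had a promoter peak. Beside it, the B cell marker promoters Cd79a, Cd79b, Pax5, Ms4a1 and Blnk had no peak in any list. Ebf1 had a permissive peak of 0.410 in replicate 2, and Cr2 had 1.22 and 1.26, so 1 of 8 markers was open in the stricter lists. The part of other cells in the Tnfrsf13c peak was not tested.

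Set out by ligand and receptor, no pair among the members could have both promoters open in both libraries, since no ligand promoter was. RANK ligand and its receptor (Tnfsf11 and Tnfrsf11a) each had a stricter peak in replicate 2. For TRAIL, the ligand Tnfsf10 and both decoy receptors had a peak in replicate 2, and the death receptor Tnfrsf10b had none. For TWEAK the receptor Tnfrsf12a was open in both libraries and the ligand Tnfsf12 in neither. In the pairs Tnfsf14 with Tnfrsf14 and Tnfsf8 with Tnfrsf8 the ligand had a replicate 2 peak and the receptor had none in the stricter list. TL1A and death receptor 3 (Tnfsf15 and Tnfrsf25) both lacked one. DNase-seq reports open DNA and not transcript or protein, so none of these calls gives an expression level.

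In replicate 2, 16 of 28 members (57.1%) had a promoter footprint, against 52.8% of all genes, and in replicate 3, 4 members (14.3%) had one, against 38.3%. The 4 were Tnfrsf12a, Tnfrsf19, Tnfrsf22 and Tnfrsf23, and no ligand had one in replicate 3, whereas 6 of 11 had one in replicate 2. Member promoters held 64 footprints in replicate 2 and 5 in replicate 3. The letters searched in them, on both strands, were CCGGAAGT (ETS), TGTGGTTT (RUNX), GGGCGGGG (KLF/SP), TGACGTCA (CREB/ATF), TGANTCA (AP-1), CCAAT (NFY) and CACGTG (E-box), with the consensuses of NF-kB, NRF1 and CTCF. The 2 matches named above for Tnfrsf12a and Tnfrsf23 were the only ones, which says nothing of the factors.

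Few member promoters were rich in CpG. Each gene was judged at its start site with the highest ratio of observed to expected CpG. Its promoter was called CpG-rich where the 1000 bp around that site had at least 55% G and C and a ratio of at least 0.6. This held for 4 of 28 members (14.3%: Tnfrsf11a, Tnfrsf19, Tnfrsf21 and Tnfsf9), against 43.0% of all genes. Of these 4, 2 were open in both libraries and 4 in replicate 2, where all CpG-rich promoters had 69.6% and 80.3%. Of the other 24 members, 2 (Tnfrsf12a and Tnfrsf23) were open in both libraries and 11 in replicate 2, where all other promoters had 19.2% and 28%. These shares were not tested against each other.

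**Figure D2:**
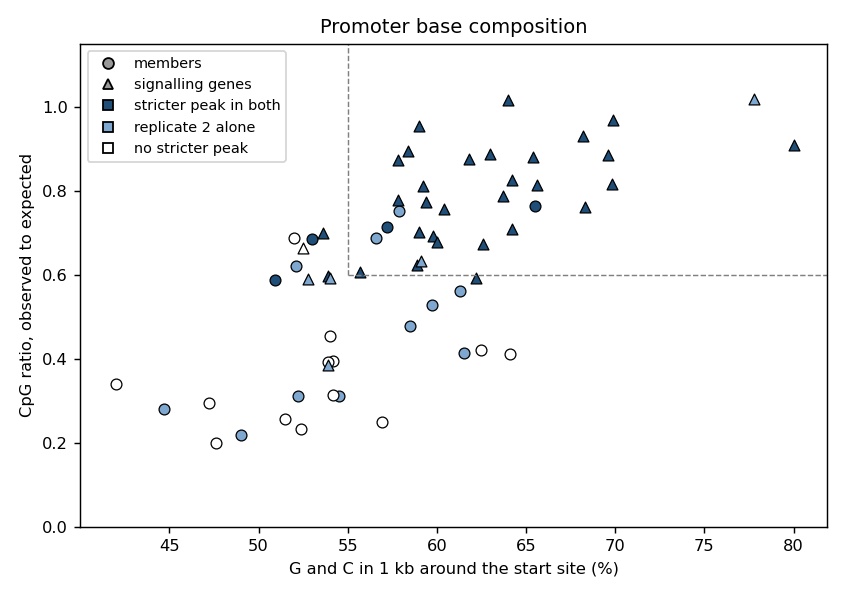
Share of G and C (x axis, percent) and ratio of observed to expected CpG (y axis) for members (circles) and signalling genes (triangles), coloured by promoter calls. Each gene is shown at its start site with the highest ratio. Dashed lines bound the CpG-rich corner, which held 4 members and 29 of 36 signalling genes.

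Most genes that carry the signal inside the cell had an open promoter. Of 36 signalling genes (TRAF adaptors, death domain adaptors, caspase-8 and its inhibitor, ubiquitin ligases, IkB kinases and NF-kB subunits), 30 (83.3%) had a stricter promoter peak in both libraries and 35 in replicate 2, and 29 were CpG-rich. Their median replicate 2 signal was 5.36. The highest ranked were Tnfaip3 (A20, an inhibitor of NF-kB signalling; 14.3 and 13.0), Tnip1 (an A20 partner; 7.67 and 10.3), Map3k14 (NIK, the kinase of the noncanonical pathway; 9.76 and 8.58) and Otulin (a linear-ubiquitin protease; 6.52 and 8.09). Mlkl, the executor of necroptosis, had a permissive peak alone (0.373 in replicate 2). Of 18 other genes of the superfamily that are not members, 1 had a peak in both libraries, Relt (8.93 and 8.54), and 9 had one in replicate 2. Among them Cd40, with a permissive peak of 0.477, and Cd40lg, Cd70 and Eda had no stricter peak. The lowest replicate 2 rate in the Cd40 promoter was 0.000562, so a rate below 0.001 in the window did not always come with a stricter peak. For peaks in both libraries, the share of signalling genes was thus above that of all genes, and those of members and other superfamily genes below it; in replicate 2 the shares were 97.2%, 53.6% and 50%, against 50.5%. No test was made.

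**Figure D3:**
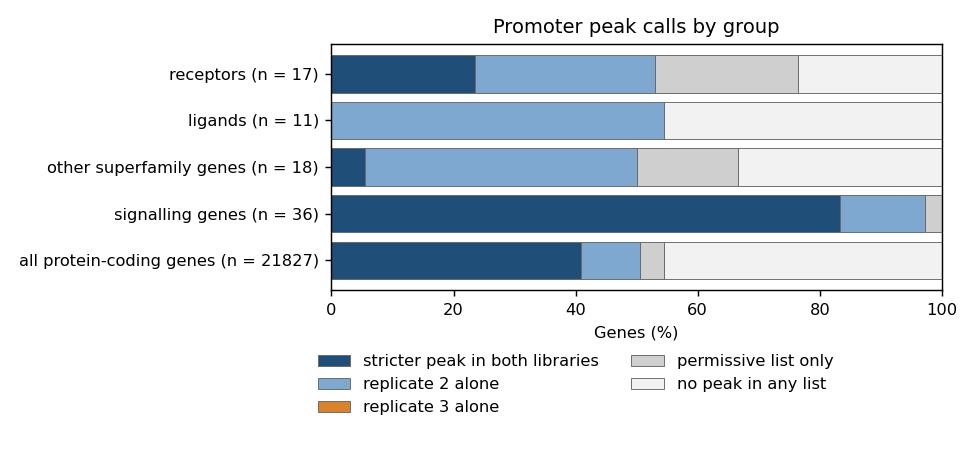
Share of genes (x axis, percent) by promoter call for receptors, ligands, the other superfamily genes, signalling genes and all protein-coding genes. The darkest bars, a stricter peak in both libraries, reach 23.5% of receptors, 0% of ligands, 5.56% of other superfamily genes, 83.3% of signalling genes and 40.9% of all genes; replicate 3 alone is too rare to see.

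The loci (gene body with 10 kb either side) held 51 separate stricter peak regions, counted once where loci overlap: 15 at member promoters, 6 at promoters of other genes and 30 elsewhere. Of these, 16 were in both libraries, 35 in replicate 2 alone and none in replicate 3 alone. Over all genes too, promoter calls in replicate 3 alone were rare (7 of 21827 genes). By signal decile, a replicate 3 peak overlapped 1.48% to 99.2% of all stricter replicate 2 peaks. The share over all regions, or over all distal ones, was not counted. A region in both libraries was present at 13 of 28 member loci (46.4%), against 56.3% of all genes. At 4 of the 13 the only shared regions lay in promoter windows of neighbouring genes: that of Snx29 beside Tnfrsf17 (7.99 and 8.36), that of Cars beside Tnfrsf26 (6.31 and 6.28), and a pair in that of Senp3 beside Tnfsf12 and Tnfsf13 (6.65 and 7.09, and 2.53 and 2.85). The weaker of the pair, chr11:69682861-69683060, also lies inside the Tnfsf13 gene body, in an untranslated exon stretch 0.877 kb from the Senp3 start. Apart from the weaker Senp3 region, each of these had a higher signal than any member promoter. Beside Tnfrsf12a, the promoter shared by Hcfc1r1 and Thoc6 had 3.02 and 3.43, and Tnfrsf12a had its own shared promoter besides. No stricter peak was listed at the loci of Tnfrsf11b, Tnfrsf25, Tnfsf13b, Tnfsf15 and Tnfsf18. The median was 2 regions per locus, and Tnfrsf1b had the most, 8.

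The 30 distal regions, outside the promoter windows of protein-coding genes, comprised 17 in introns, 9 between genes, 3 in exons with coding sequence and 1 in an untranslated exon. In both libraries 7 were found, and of the 23 in replicate 2 alone, 12 had a permissive peak in replicate 3. All 7 lay at members whose promoter was not open in both libraries, but only 4 of the 28 members had a promoter that was. At those 4 members the only distal region was that of Tnfrsf19, in replicate 2 alone. Of the 7 shared regions, 4 are shown, 1 per member, with capitals marking replicate 2 footprints.

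Tnfrsf14 intron, chr4:154925461-154925680: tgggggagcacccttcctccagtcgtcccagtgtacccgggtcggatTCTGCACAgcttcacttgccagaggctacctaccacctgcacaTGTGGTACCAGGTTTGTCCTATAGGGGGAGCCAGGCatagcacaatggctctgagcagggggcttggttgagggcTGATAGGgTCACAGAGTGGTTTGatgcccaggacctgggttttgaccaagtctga
Tnfrsf1b upstream, chr4:145254481-145254760: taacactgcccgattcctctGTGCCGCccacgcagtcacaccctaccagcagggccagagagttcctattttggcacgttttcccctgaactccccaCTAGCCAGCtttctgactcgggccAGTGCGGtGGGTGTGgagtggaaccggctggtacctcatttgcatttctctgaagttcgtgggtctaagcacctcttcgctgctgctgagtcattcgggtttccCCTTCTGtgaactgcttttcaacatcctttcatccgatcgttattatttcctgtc
Tnfsf9 upstream, chr17:57096661-57096820: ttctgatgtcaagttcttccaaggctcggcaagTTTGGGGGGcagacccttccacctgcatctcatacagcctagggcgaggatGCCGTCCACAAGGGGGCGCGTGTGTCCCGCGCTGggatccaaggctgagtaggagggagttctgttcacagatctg
Tnfsf10 downstream, chr3:27345641-27345825: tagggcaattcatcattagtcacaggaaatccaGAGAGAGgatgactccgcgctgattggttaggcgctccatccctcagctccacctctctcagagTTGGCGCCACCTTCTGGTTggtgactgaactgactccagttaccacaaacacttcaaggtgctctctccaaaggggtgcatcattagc

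Tnfrsf1b, the TNF receptor of T cells that lacks a death domain, had 2 shared distal regions. The stronger, chr4:145214501-145214680, lay in an untranslated exon stretch near the end of the gene. It was 32.3 kb from the Tnfrsf1b start site and nearer, at 19.6 kb, to that of Vps13d. Its signal was 4.64 in replicate 2 and 4.20 in replicate 3. This was the highest signal of any distal region at a member locus in each library. Each library had 1 footprint over a match to the CTCF consensus there, which is shown with the match in capitals in place of footprints. In a search added after the data were seen, this was the only 1 of the 30 distal regions with such a match in 200 bp around its centre. The share was 16.1% of all distal peaks of replicate 2. Only full matches were counted, so sequences close to the consensus were left out.

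Tnfrsf1b, chr4:145214570-145214599: caggacgggCCACCAGGGGGCagacgtgtt

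The other shared region, chr4:145254481-145254760, lay 7.75 kb upstream with signals of 1.88 and 2.57. It had 5 footprints in replicate 2, and the 1 of replicate 3 overlapped none of them. Replicate 2 alone had 5 more distal regions at Tnfrsf1b, between 0.925 and 2.43, against 0.873 at its promoter. Of these, the ones at 1.23, 1.43 and 2.43 had permissive replicate 3 peaks of 1.90, 2.21 and 1.99. The one at 1.23 also lay nearer to the Vps13d start (24.8 kb) than to that of Tnfrsf1b (27.1 kb).

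Tnfrsf14 had no stricter promoter peak and 4 distal regions. An intronic one, chr4:154925461-154925680, had 1.57 in replicate 2 and 2.85 in replicate 3, with 4 footprints and 1, which overlapped. The other 3 lay close together upstream. The first of these, chr4:154935801-154936300, 7.85 kb upstream, was in both libraries (1.90 and 2.03). Those at chr4:154936561-154936920 (3.01) and chr4:154936941-154937180 (2.70) were in the stricter list of replicate 2 and in the permissive list of replicate 3 (1.99 and 1.94). All 4 regions of Tnfrsf14 thus had a peak in both libraries in the stricter or the permissive list, whereas its promoter had none in replicate 3. Tnfrsf8 likewise had no stricter promoter peak and a shared intronic region at chr4:145295721-145295900 (1.71 and 1.85), 19.3 kb from its start. Tnfrsf8 and Tnfrsf1b are 20.3 kb apart.

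Ligands had 2 shared distal regions. At Tnfsf9, the region chr17:57096661-57096820, 8.58 kb upstream, had 3.63 and 3.30, against 0.485 in replicate 2 and no peak in replicate 3 at the promoter. It held 2 footprints in replicate 2 and 1 in replicate 3, which overlapped one of them. At Tnfsf10, the region chr3:27345641-27345825 beyond the end of the gene had 1.87 and 1.31; it lies 28.7 kb from the Tnfsf10 start and nearer, at 25.6 kb, to that of Ghsr. Which gene a distal region acts on was not measured.

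The other distal regions were in replicate 2 alone. Tnfrsf10b, whose promoter had no peak in any list, had 3 inside the gene (0.851, 1.90 and 1.49), and each had a permissive peak in replicate 3 (0.994, 1.08 and 1.58). Tnfrsf1a had 3 in introns (1.17, 0.724 and 0.925), none of which had a replicate 3 peak. Tnfrsf26 had 1 in an intron at 1.62, above any of its promoter peaks and within 10 kb of Tnfrsf22. Tnfrsf8 had 2 more (1.51 and 0.463), Tnfsf4 had 2 (0.522 and 0.970), and Tnfrsf13b, Tnfrsf19, Tnfrsf21, Tnfsf11 and Tnfsf14 had 1 each, at 0.604, 0.739, 0.418, 0.925 and 0.948. Across the 16 regions in both libraries, replicate 2 had 61 footprints and replicate 3 had 20, of which 13 overlapped one of replicate 2.

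**Figure D4:**
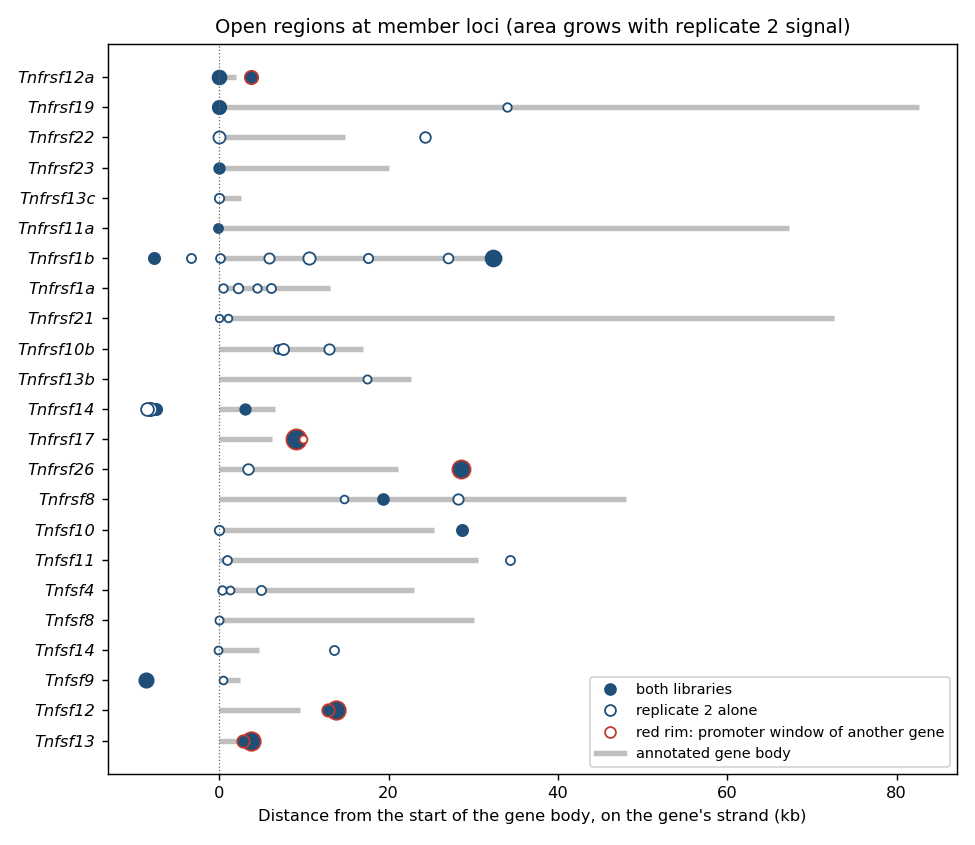
Stricter peak regions at the 23 member loci that had any, by distance in kb from the start of the annotated gene body (grey bars) along the gene's strand; symbol area grows with the replicate 2 signal. Filled symbols are regions in both libraries (16 separate regions), open ones are in replicate 2 alone, and red rims mark promoter windows of other genes; Tnfrsf1b has 8 regions, filled at both ends of the row.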

How the data were processed

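DNase-seq libraries of 1 group, 2 in number, were used, each with the authors' own lists on mm10, per the labels. The tools behind the alignments, peaks and footprints are not named in the labels or file headers. A signal per peak is given in the lists the authors deposited (scaling not stated, so depth is known only as the ratio given above), and the deposited q-values are false discovery rates per stretch of positions, up to 0.05. Footprint intervals were used as deposited.

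Genes were the 21827 protein-coding symbols of GENCODE M21. A gene was called open when a stricter peak shared at least 1 bp with a window of 1000 bp around any start site, and its signal was that of the highest such peak. The members, the gene lists, motifs and alternatives were chosen with earlier results of these data known. Counts were set beside those over all protein-coding genes and no test was made, since 1 group of 2 libraries allows none. All members are named; of the added lists, the 4 highest ranked and up to 4 without a stricter peak are named. The values of 1 B cell marker are not reported here. Promoter stretches were aligned locally outside exons and globally in 200 bp around start sites. Overlap counts were tested on simulated data against bedtools (2500 of 2500 windows equal). All peaks lay inside the GRCm38 chromosome lengths. Alternatives changed the peak list, number of peaks, overlap, windows, start sites and libraries. Tools were Python 3.11.15, numpy 2.4.6, pandas 2.3.3, pysam 0.24.0, bedtools 2.31.1 and matplotlib 3.10.9.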

Additional observations from a re-analysis of the deposited data

How the results depend on the processing

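No paired analysis was possible because the series has 1 group. The 4 members with a promoter peak in both libraries became 7 with the permissive lists, as did the 4 receptors, which added Tnfrsf13c, Tnfrsf21 and Tnfrsf22. Using 1 library at a time, members ranged from 4 to 15, receptors from 4 to 9 and ligands from 0 to 6, where the shares of all genes were 40.9% and 50.5%; the higher counts are those of replicate 2. The other superfamily genes moved from 1 to 2 with the permissive lists, 3 with windows of 2000 bp and 2 with 1 start site per gene, and ranged from 1 to 9 by library. The naive CD8 T cell markers moved from 1 to 3 with the permissive lists and 0 where 50% of each peak had to be shared, and ranged from 1 to 7 by library. Member loci with a shared region moved from 13 to 20 (permissive lists), 7 (gene body alone) and 20 (flanks of 50 kb), with 13 to 23 by library. The regions themselves moved from 16 to 31, 7 and 45. By library, where single peaks were counted in place of merged regions, there were 16 to 53. For loci the share of all genes was counted in the main setting alone (56.3%), so the changed counts have no share beside them. Members with a promoter footprint ranged from 4 to 16 by library. The 30 signalling genes stayed within 1.5 times of that count under every alternative run (26 to 35). Of the 19 member promoter signals, 18 were equal with the permissive lists (Tnfrsf21 moved to 0.425) and 17 with windows of 2000 bp (Tnfrsf1a moved to 1.17 and Tnfrsf21 to 0.418). The low peak number of replicate 3 limits every count over both libraries.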

Other observations

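As an addition made after the data were seen, the motif letters were also searched, on both strands, in 200 bp around the centre of each region at the member loci, and in all stricter peaks of replicate 2. The 21 regions at promoters comprised 15 at member promoters and 6 at promoters of other genes. Of the 21, NFY letters were in 5 (25.5% of all promoter peaks) and KLF/SP letters in 3 (23.6%). Both counts include a region at the Snx29 promoter. AP-1 letters were in 2, at Tnfrsf23 and Tnfsf14 (2.76%), and the NF-kB consensus was in none (9.06%). In the 30 distal regions, NFY letters were in 6 (20.1% of all distal peaks) and AP-1 letters in 4 (6.52%). Of these 4, 3 were at Tnfrsf1b, and the fourth was in the intron of Tnfrsf26. The NF-kB consensus was in 1 distal region, in an intron of Tnfrsf19 (5.41%), and the RUNX letters in 1, upstream of Tnfrsf14 (4.18%). The CTCF consensus was in 1, at Tnfrsf1b (16.1%), E-box letters in 2 (4.8%) and KLF/SP letters in 1 (3.59%). A match is a description of the letters and not of binding.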
